A study of Mus musculus with 9 samples.

Results

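The comparison described here is that of RAW 264.7 cells given pamidronate together with geranylgeraniol (GGOH) against the same cells given pamidronate alone. Its members are 6 of the 9 sequenced libraries, 3 labelled with pamidronate and GGOH and 3 labelled with pamidronate, chosen by those labels and read across all genes of the count table. RAW 264.7 is a mouse macrophage line whose cells can turn into osteoclast-like cells under RANKL, the cytokine that drives osteoclast formation. The growth notes give RANKL at 20 ng/ml for every sample, added after 24 h of growth. At a total of 48 h the cells received 140 µM pamidronate with or without 5.25 µM GGOH, and they were kept for a further 24 h. The remaining 3 libraries are controls labelled as having had no treatment under the same growth notes, and their values are given beside the others as a reference, with no test against them. The treatment notes name pamidronate for every sample, so that the controls had none rests on their own label alone. The labels do not say whether the treated samples came from separate cultures, so p-values reflect only the spread among these samples, which may be technical. The names of the GGOH libraries also carry a 25pct tag that the labels do not explain.

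Pamidronate is a nitrogen-containing bisphosphonate that blocks farnesyl diphosphate synthase, an enzyme of the mevalonate pathway. That pathway leads from acetyl-CoA to farnesyl and geranylgeranyl diphosphate, the lipids that prenyltransferases attach to small GTPases such as Rac and Rab so that they can sit in membranes, and farnesyl diphosphate is also the precursor of cholesterol. GGOH is the alcohol that cells can phosphorylate to geranylgeranyl diphosphate, so it can feed protein geranylgeranylation past the blocked step but cannot be turned into cholesterol by that route. Genes of sterol synthesis and uptake are driven by SREBP transcription factors, which INSIG proteins hold back in the endoplasmic reticulum when sterols are plentiful.

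Sterol synthesis genes and targets of the tumour suppressor p53 were mostly lower with GGOH, and genes of macrophages, adhesion and the actin cytoskeleton were mostly higher. In total, 15963 genes were tested with edgeR's quasi-likelihood test, and those with a Benjamini-Hochberg adjusted p under 0.05 were called. With GGOH, 4022 genes were higher (25.2% of those tested) and 3762 were lower (23.6%), together 48.8%. These shares are the background against which each list below is read. Changes are given as log2 fold changes of pamidronate with GGOH over pamidronate alone, so that 1 is a 2-fold rise and -1 a 2-fold fall. Every amount by which a gene rose, fell or changed is on that scale. The standard error (SE) beside a change was derived from the test, as the size of the change over the square root of its F statistic. A change of at least 2-fold was called for 2590 genes (16.2%), 1628 higher and 962 lower. Larger changes were mostly upward. At 4-fold or more, 415 genes were higher and 100 lower, and at 8-fold or more 95 were higher and 8 lower. The 3 GGOH libraries lay entirely above or below the 3 pamidronate libraries for 59.6% of genes.

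The 6 libraries held 14356069 to 17559086 counts. Levels are in CPM, a gene's count relative to its library's total, scaled with TMM factors, which correct for differences in library composition. CPM is not divided by length, so levels of different genes are not ranked, and a sum over markers is a sum of counts taken. Among the genes called higher, GGOH replicate 3 had the highest of the GGOH values for 64.2%, and among the genes called lower it had the lowest for 54.0%. Without that library 3980 genes were called higher and 3019 lower. RNA encoded by the mitochondrial genome made up 4.21% ± 0.848 (SD, n = 3) of counts with pamidronate and 5.98% ± 0.482 (SD, n = 3) with GGOH, against 10.6% ± 0.225 (SD, n = 3) in the controls. Malat1, a nuclear RNA, took 4.83% ± 0.263 (SD, n = 3) of counts with pamidronate and 2.59% ± 0.217 (SD, n = 3) with GGOH. For both measures the exact two-sided permutation p was 0.1, the smallest that 3 against 3 libraries allow. The part of these shifts in the results below was not tested. The summed level of 8 defining macrophage markers ran from 4540.5 to 6354 CPM with pamidronate, from 6528 to 9494 CPM with GGOH and from 15609 to 20478 CPM in the controls. Most of each sum came from Lyz2, which was not called. Of the 9 entries tested, with Itgam present under a pair of gene identifiers, 5 were called higher and 1 lower. The 8 osteoclast markers summed to 268 to 407 CPM with pamidronate and 241 to 248 CPM with GGOH. In the controls they summed to 89.0 to 109 CPM. With GGOH, 2 of the 6 osteoclast markers tested were called higher and 3 lower. Markers of T cells, neutrophils, epithelium and dendritic cells summed to at most 20.6 CPM in any of the 6 libraries. B cell markers summed to 28.2 to 35.4 CPM with pamidronate and 32.4 to 80.1 CPM with GGOH, most of it from Ighm, which was not called. Markers of fibroblasts and osteoblasts summed to 29.3 to 43.1 CPM, most of it from Runx2. Endothelial markers summed to 13.9 to 14.7 CPM with pamidronate and 27.5 to 56.3 CPM with GGOH, most of the latter from Tek, the angiopoietin receptor, and 3 of the 5 tested were called higher. Tek had a log2 change of 2.53 ± 0.35 (SE, adjusted p = 3.36e-04). Cdh5, the cadherin of endothelial junctions, went from 0, 0.127 and 0.372 CPM to 1.48, 1.62 and 1.05 CPM, 3.00 ± 0.60 (SE, adjusted p = 8.46e-04), and Vwf, von Willebrand factor, rose by 0.47, a call lost without pamidronate replicate 3 or GGOH replicate 2 (adjusted p = 0.0753 and 0.0672). The 3 pamidronate libraries held 8 counts of Cdh5 in all. Pecam1 and Kdr were not called and reached at most 1.02 and 1.08 CPM, and Emcn, at no more than 0.125 CPM, was not tested. The part of other cell types in the results was not tested.

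The mevalonate pathway was lower with GGOH at most of its steps. Of the 9 genes that lead to the prenyl diphosphates, 6 fell, 0 rose, and the median log2 fold change was -1.70, against 0.00 over all genes tested. The same direction held in each GGOH library, with list medians of -1.54, -1.54 and -1.74 relative to the pamidronate mean on the log2(CPM + 0.5) scale, and the control libraries stood at -0.45, -0.55 and -0.72. Hmgcs1, which makes HMG-CoA (ENSMUSG00000093930, GRCm38 chromosome 13, 119690462 to 119708086), stood at 173, 209 and 204 CPM in the pamidronate libraries and at 28.2, 24.3 and 21.9 CPM with GGOH. All GGOH values were far below the pamidronate values and below the controls, at 44.0, 31.6 and 30.9 CPM. Its log2 fold change was -2.98 ± 0.15 (SE, adjusted p = 3.27e-08).

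Later steps of the same pathway moved alike. Mvd, which makes isopentenyl diphosphate, was at 71.3, 66.2 and 68.4 CPM with pamidronate and at 19.4, 13.4 and 17.3 CPM with GGOH, and changed by -2.04 ± 0.20 (SE, adjusted p = 1.20e-05). Fdps, which encodes the enzyme that pamidronate inhibits (ENSMUSG00000059743, GRCm38 chromosome 3, 89093588 to 89101959), was at 19.6, 18.4 and 21.1 CPM and then at 6.92, 6.42 and 4.52 CPM, and changed by -1.73 ± 0.18 (SE, adjusted p = 4.26e-06). For both genes the GGOH libraries lay below every control library, at 43.9, 27.0 and 26.5 CPM for Mvd and 14.3, 9.13 and 11.8 CPM for Fdps. Acat2, which condenses acetyl-CoA, and Idi1, the isomerase of isopentenyl diphosphate, fell by 1.70 and 1.81 on the log2 scale. Ggps1 (ENSMUSG00000021302, GRCm38 chromosome 13, 14052449 to 14063401), whose product makes geranylgeranyl diphosphate itself, did not pass. It was at 26.5, 28.1 and 27.0 CPM with pamidronate and 23.7, 24.6 and 22.9 CPM with GGOH (-0.20, adjusted p = 0.105). Its exons overlap those of Arid4b on the other strand, and whether the counting used strand is not given in the labels. The kinases Mvk and Pmvk, at under 5 CPM, did not pass either (adjusted p = 0.278 and 0.0593), although Pmvk was called lower when the 2 groups were fitted alone (adjusted p = 0.0249) and without control replicate 1 or 3 (0.0232 and 0.0431).

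Past farnesyl diphosphate, 9 of 13 genes of cholesterol synthesis fell, 2 rose, and the median was -0.76. Msmo1, a sterol methyl oxidase (ENSMUSG00000031604, GRCm38 chromosome 8, 64718139 to 64733792), went from 158, 159 and 182 CPM to 48.2, 29.6 and 25.3 CPM, a log2 change of -2.28 ± 0.27 (SE, adjusted p = 2.46e-04). Cyp51, the lanosterol demethylase, went from 66.9, 61.9 and 71.3 CPM to 16.3, 14.5 and 16.7 CPM, a log2 change of -2.07 ± 0.13 (SE, adjusted p = 6.29e-08). Neither gene overlapped between the groups, and the Cyp51 values with GGOH were below all controls, at 30.1, 24.7 and 20.5 CPM. Fdft1, the squalene synthase that commits farnesyl diphosphate to sterols, changed by -2.23 ± 0.13 (SE), Lss, lanosterol synthase, by -1.77 ± 0.13 (SE), and Sqle, squalene epoxidase, by -1.55 ± 0.12 (SE). Exons of Fdft1 overlap Ctsb and exons of Cyp51 overlap Akap9 on the other strand, so reads of these neighbours cannot be told apart without strand. Sc5d, Dhcr7 and Nsdhl, which act late in the pathway, fell by 1.22, 0.76 and 0.75 on the log2 scale, and Hsd17b7 by 0.45 with an adjusted p of 0.0473. That last call was lost in DESeq2 (0.0512), in limma-voom (0.0554), with RLE or upper-quartile factors (0.0521 and 0.0561), with the stricter filter (0.0502), and without any 1 of the 6 treated libraries or control replicate 2 (up to 0.185). Lbr, a sterol reductase that is also the lamin B receptor, and Ebp, a sterol isomerase, rose by 0.72 and 0.49. The Lbr call was lost in limma-voom (adjusted p = 0.0524) and when any pamidronate library or GGOH replicate 3 was left out (up to 0.102), and the Ebp call without pamidronate replicate 2 or 3 (0.105 and 0.0891).

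Among the regulators of this pathway the change was largest for Insig1, the sterol-sensing brake on SREBP (ENSMUSG00000045294, GRCm38 chromosome 5, 28071363 to 28078662). It was at 292, 364 and 382 CPM with pamidronate and at 26.3, 17.9 and 14.036 CPM with GGOH, while the controls held 30.4, 18.9 and 18.3 CPM. Its log2 fold change of -4.16 ± 0.29 (SE, adjusted p = 1.37e-05) was the lowest of any named gene, and the GGOH values lay in or just below the range of the controls. Srebf2, which encodes the SREBP that drives cholesterol genes, went from 258, 256 and 294 CPM to 128, 92.4 and 93.3 CPM, a log2 change of -1.36 ± 0.14 (SE, adjusted p = 5.42e-06). Stard4, a carrier of cholesterol between membranes, changed by -1.82 ± 0.12 (SE). In contrast to Insig1, its paralog Insig2 gave -0.08 (adjusted p = 0.60043), and Scap, the escort that carries SREBP to the Golgi, rose by 0.81 ± 0.13 (SE). Of the 13 genes in this list 6 fell and 2 rose, with a median of -0.08. The plot of sterol genes by library shows these values side by side.

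**Figure D1:**
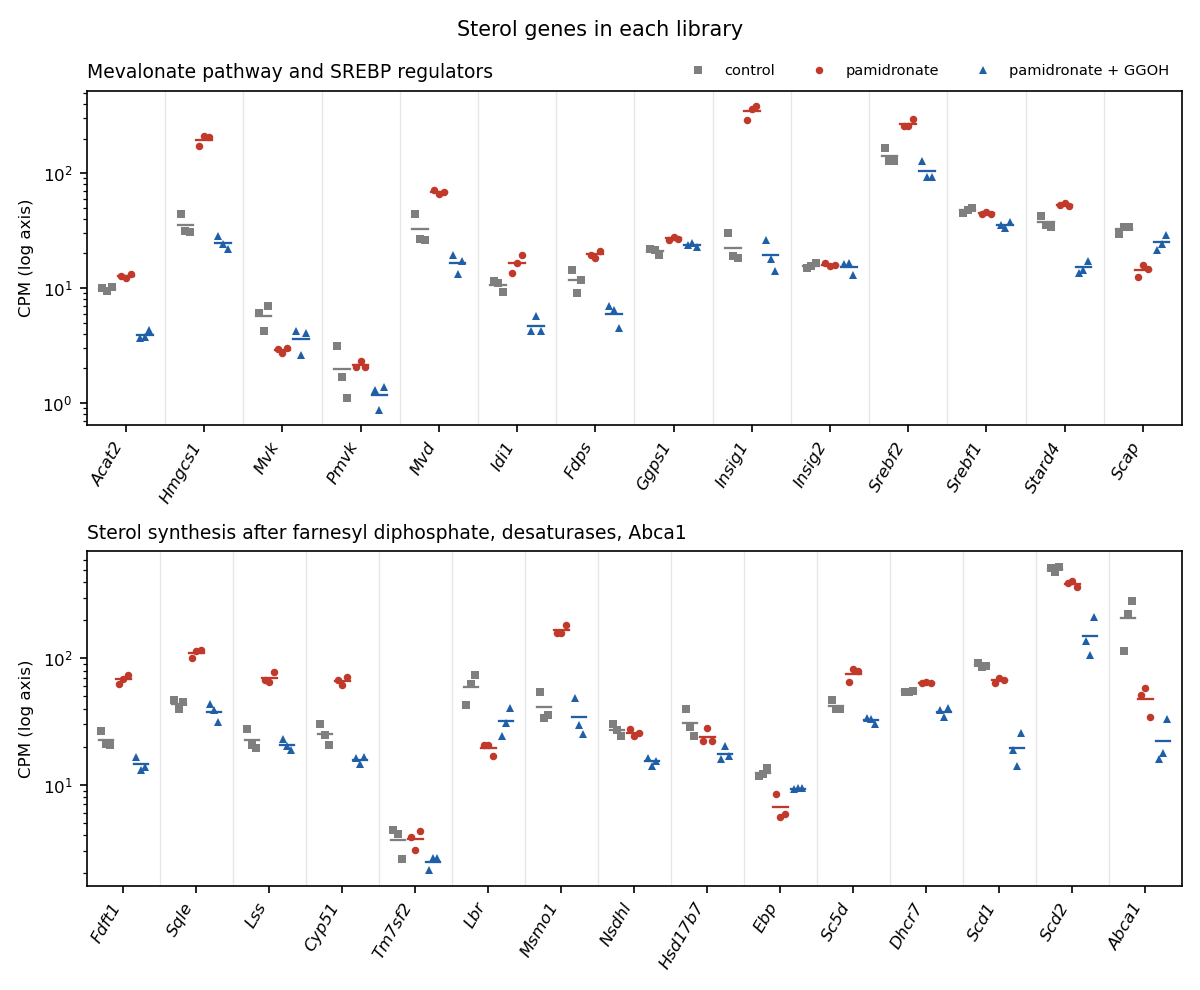
Level of each gene in each of the 9 libraries, in CPM on a log axis, with 1 point per library and a bar at the mean of 3 libraries, for the mevalonate pathway and SREBP regulators (top) and for later sterol synthesis, desaturases and Abca1 (bottom). For Hmgcs1, Mvd, Fdps and Cyp51 the 3 pamidronate + GGOH libraries lie below the pamidronate libraries and below the 3 controls, whereas for Ggps1, Insig2 and Mvk the groups lie close together.

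The promoters of the 3 genes with the largest fall among those of these lists with a RefSeq window show what such regions hold. Each is the stretch of 250 bases before the start site annotated by RefSeq, in GRCm38.p6, written 5′ to 3′ on the gene's strand. The RefSeq starts of Insig1 and Msmo1 lie inside the gene spans given above, so part of each stretch does too. Distances below are from the RefSeq start. Capitals mark the SREBP site core TCACNCCAC and the CCAAT box, on either strand. Insig1 is chr5:28071162-28071411 on the plus strand, Hmgcs1 is chr13:119690101-119690350 on the plus strand and Msmo1 is chr8:64733579-64733828 on the minus strand.
Insig1: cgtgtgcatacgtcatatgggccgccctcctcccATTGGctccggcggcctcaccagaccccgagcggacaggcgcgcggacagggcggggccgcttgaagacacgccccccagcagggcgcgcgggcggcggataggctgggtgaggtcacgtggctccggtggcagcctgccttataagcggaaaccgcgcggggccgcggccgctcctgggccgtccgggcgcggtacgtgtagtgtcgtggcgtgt
Hmgcs1: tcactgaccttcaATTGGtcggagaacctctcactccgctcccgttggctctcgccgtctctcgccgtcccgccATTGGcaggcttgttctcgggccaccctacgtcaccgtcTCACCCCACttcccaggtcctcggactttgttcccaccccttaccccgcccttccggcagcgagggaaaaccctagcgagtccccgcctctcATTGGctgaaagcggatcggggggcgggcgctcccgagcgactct
Msmo1: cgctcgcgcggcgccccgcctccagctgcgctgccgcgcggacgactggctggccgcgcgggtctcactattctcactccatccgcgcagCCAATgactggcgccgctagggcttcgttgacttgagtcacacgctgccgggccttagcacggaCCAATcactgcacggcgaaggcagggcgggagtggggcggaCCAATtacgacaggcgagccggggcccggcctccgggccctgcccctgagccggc
The SREBP core appeared once, in Hmgcs1, as TCACCCCAC starting 137 bases before the start site, with CCAAT boxes on the opposite strand starting 176, 237 and 45 bases before it. Msmo1 held 3 CCAAT boxes and Insig1 held 1. Over windows that also take in 50 bases after the start, the SREBP core was in 1 of the 7 mevalonate genes with a window, in 0 of 10 later sterol genes and in 0 of 9 genes of the SREBP list, against 1.44% of the 10321 tested genes with a window. CCAAT was in 6 of 7, 10 of 10 and 6 of 9 genes of the same lists, against 42.6% of tested genes. These are matches of letters, not measured binding, and the core was searched only in its exact form.

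Fatty acid genes, part of which are also SREBP targets, were mostly lower. In this list 9 of 16 fell and 3 rose (median -0.31). Scd1, a desaturase that makes oleate, was at 64.1, 69.5 and 67.9 CPM with pamidronate and at 18.7, 13.954 and 25.4 CPM with GGOH, and changed by -1.79 ± 0.16 (SE, adjusted p = 3.16e-06). Its paralog Scd2 went from 391, 407 and 368 CPM to 137, 106 and 210.1 CPM, a log2 change of -1.36 ± 0.20 (SE, adjusted p = 3.62e-04). In the controls Scd1 was at 91.1, 84.9 and 87.4 CPM and Scd2 at 516, 484 and 530.3 CPM, so the GGOH libraries were the lowest of the 3 groups for both. Acsl3, Acss2 and Fads2, which activate or desaturate fatty acids, fell by 1.53, 1.29 and 1.27. Exons of Acsl3 overlap Utp14b and those of Acss2 overlap Gss. Me1, the malic enzyme that supplies NADPH, rose by 1.38 ± 0.23 (SE). A further list holds the LXR receptors, which sense oxysterols, their targets and genes of cholesterol efflux. Of its 9 genes tested 3 rose and 2 fell, or 1 without control replicate 2, pamidronate replicate 3 or any GGOH library. Among those that fell was Nr1h2, which encodes an LXR itself. Abca1, the cholesterol exporter, was at 51.6, 58.3 and 34.1 CPM with pamidronate and 15.9, 17.8 and 32.8 CPM with GGOH, but did not pass (-1.11, adjusted p = 0.0822). It was called lower by DESeq2 (0.033), with the 2 groups fitted alone (0.0345) and without control replicate 1 (0.0376). Apoe, the lipid carrier, fell by 0.86, and Pltp, a phospholipid transfer protein whose exons overlap Ctsa, rose by 1.68.

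The enzymes that attach and process prenyl groups moved both ways. Of 17 genes in this list 5 rose and 6 fell, shares somewhat above the background. Pggt1b, the specific subunit of the geranylgeranyl transferase of type I, was at 34.0, 36.2 and 40.3 CPM with pamidronate and at 21.4, 23.0 and 21.1 CPM with GGOH, with no overlap, and changed by -0.75 ± 0.10 (SE, adjusted p = 3.08e-05). Fnta, the alpha subunit of farnesyltransferase and of the geranylgeranyl transferase of type I, fell by 0.42, and Icmt, which methylates the prenylated cysteine, by 0.58. Rce1 and Zmpste24, proteases that trim prenylated ends, rose by 0.51 and 0.58, and Chm, the escort protein of Rab prenylation, by 0.40. Coq2, which prenylates the ubiquinone ring, rose most, from 3.30, 2.72 and 2.42 CPM to 8.85, 10.3 and 11.9 CPM, a log2 change of 1.88 ± 0.17 (SE, adjusted p = 1.41e-06). Its GGOH values approached those of the controls, 13.7, 15.8 and 14.5 CPM. The subunits Rabggta and Rabggtb of the Rab transferase did not pass.

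Small GTPases, many of which carry these lipids, did not move together. Among them Rhoa (ENSMUSG00000007815, GRCm38 chromosome 9, 108306129 to 108337934) was at 317, 363 and 289 CPM with pamidronate and at 311, 360.4 and 429 CPM with GGOH. The groups overlapped, and it did not pass (adjusted p = 0.212), although without GGOH replicate 1 it was called higher (0.0298). Cdc42 rose from 229, 233 and 197 CPM to 258, 289 and 354 CPM, a log2 change of 0.45 ± 0.11 (SE, adjusted p = 0.00446), and Rac1 from 187, 215 and 175 CPM to 221, 231 and 283 CPM, a log2 change of 0.35 ± 0.11 (SE, adjusted p = 0.0141), a call lost without pamidronate replicate 1 (0.0579) or 3 (0.0784). Rhob, a short-lived GTPase that can carry either lipid, was at 41.1, 41.4 and 36.9 CPM with pamidronate and at 25.7, 25.4 and 25.4 CPM with GGOH, with almost no spread in the second group, and fell by 0.64 ± 0.10 (SE) on the log2 scale. Rhou and Rhov, atypical GTPases, fell by 1.55 and 1.67.

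Other GTPase families also held genes called in both directions, several at shares near the background. Of 45 Rab genes 16 rose, a share above the background, and 10 fell, a share near it. Rab39, Rab15, Rab19 and Rab23 rose by 1.99, 1.98, 1.67 and 1.25, the first 3 at under 2 CPM, and Rab9 and Rab5a, which act on late and early endosomes, fell by 1.22 and 0.94. Of 19 Ras, Rap and Ral genes 6 rose and 4 fell, shares not far from the background. The count that rose was 3 without pamidronate replicate 1 or 3. The count that fell was 1 without GGOH replicate 2 or 3 and 2 without control replicate 2 or pamidronate replicate 1. Rap1a, a regulator of integrin adhesion, gave -0.08 with overlapping groups (adjusted p = 0.521). Of 27 Arf, Arl and Sar genes, whose products carry no prenyl group, 7 rose, a share near the background, and 10 fell, a share above it. Arf4, a GTPase of the Golgi, stood out among them, at 545, 605 and 514 CPM with pamidronate and 127, 111 and 120.3 CPM with GGOH, a log2 change of -2.22 ± 0.11 (SE, adjusted p = 1.67e-08). That placed it in the range of the controls, 143, 122.95 and 109 CPM. Of 17 alpha and beta subunits of heterotrimeric G proteins 5 rose and 4 fell, shares near the background, or 2 fell without pamidronate replicate 2 or GGOH replicate 1 or 2. Of 9 gamma subunits, which are prenylated, 4 rose and 3 fell. Gng8 went from 12.0, 13.2 and 18.5 CPM to 6.07, 5.92 and 3.89 CPM, a log2 change of -1.46 ± 0.22 (SE, adjusted p = 7.03e-05), and the controls held 0.818, 0.448 and 0.618 CPM, whereas Gng2 rose by 1.18.

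Several regulators of such GTPases were higher. Dock2, an activator of Rac in blood cells (ENSMUSG00000020143, GRCm38 chromosome 11, 34226815 to 34783892), was at 85.8, 80.8 and 84.2 CPM with pamidronate and at 178, 197 and 242 CPM with GGOH, and changed by 1.30 ± 0.14 (SE, adjusted p = 1.13e-05). Dock4 went from 17.1, 16.6 and 13.8 CPM to 47.5, 51.2 and 46.9 CPM, a log2 change of 1.62 ± 0.11 (SE, adjusted p = 1.37e-07), and Vav3 from 31.8, 28.4 and 24.8 CPM to 75.5, 71.2 and 80.8 CPM, a log2 change of 1.42 ± 0.13 (SE, adjusted p = 1.41e-06). For Dock4 the 3 GGOH values were above all controls, at 43.9, 37.1 and 35.6 CPM. Dock8, Dock1 and Arhgef7, exchange factors that load GTPases with GTP, rose by 1.24, 1.24 and 1.07. Arhgap31, a GTPase-activating protein, went from 4.64, 3.98 and 2.73 CPM to 16.9, 20.8 and 29.7 CPM, a log2 change of 2.57 ± 0.23 (SE, adjusted p = 4.61e-06), and Arhgap15, Arhgap26 and Arhgdib rose by 2.75, 1.64 and 1.36.

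**Figure D2:**
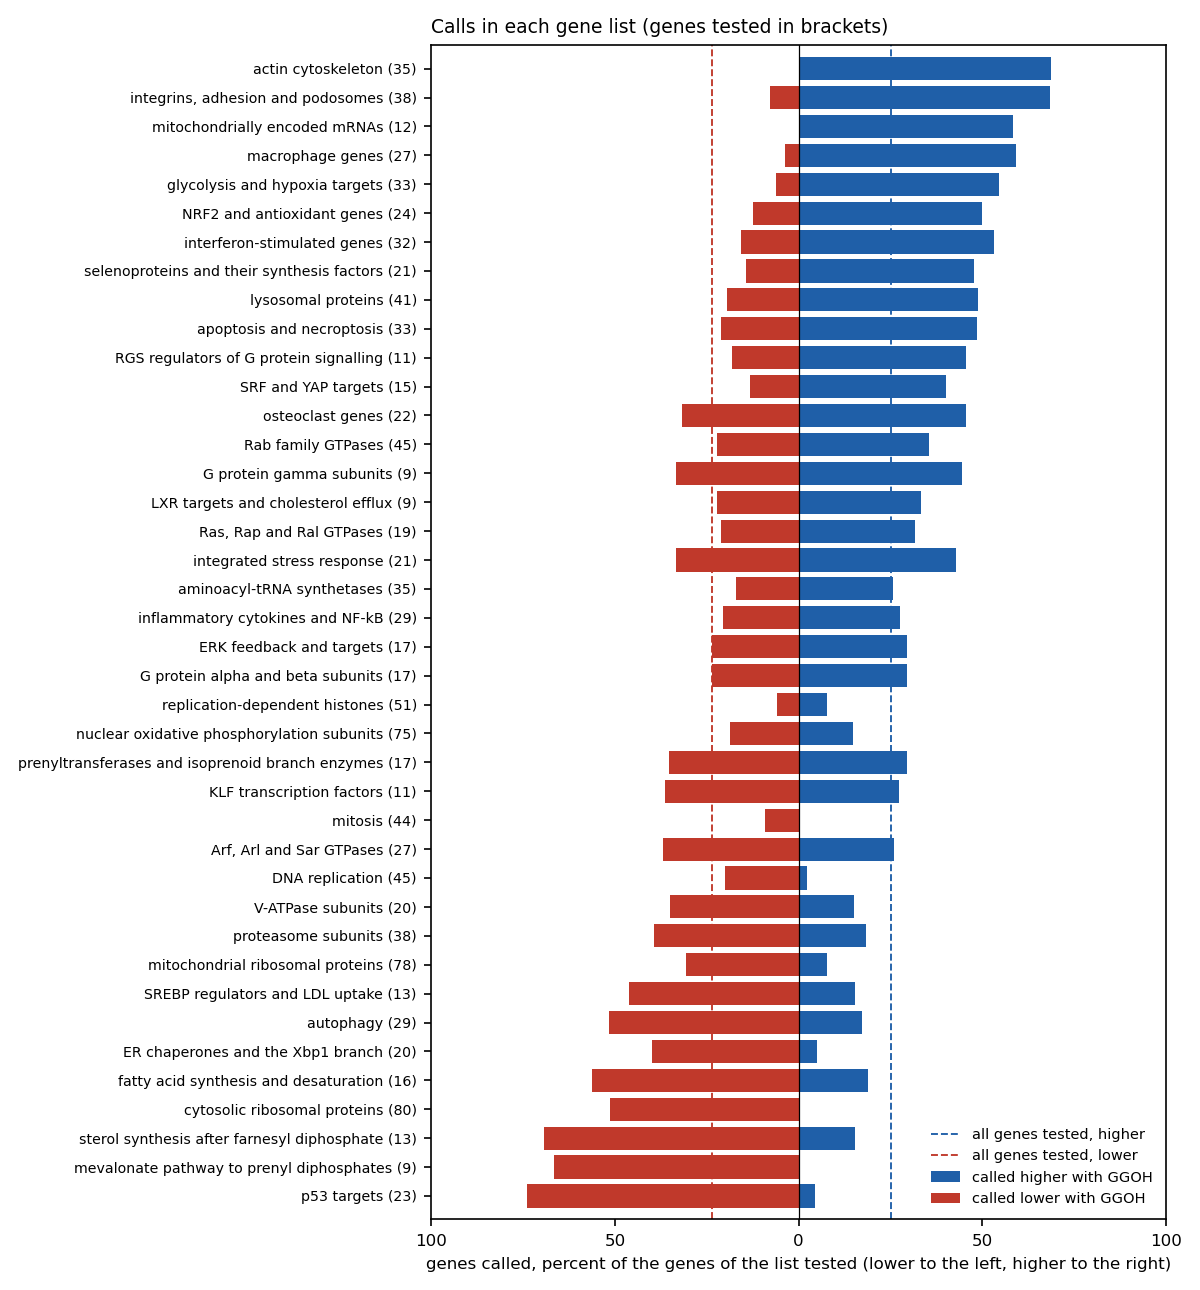
Share of the tested genes of each of 40 gene lists that were called higher (right) or lower (left) with GGOH, in percent, with the number tested in brackets and dashed lines at the shares over all genes tested (25.2% higher and 23.6% lower). The actin, adhesion and macrophage lists reach farthest to the right, and the p53, mevalonate and sterol lists farthest to the left.

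Macrophage genes were among those that rose most. Of 27 tested, 16 rose and 1 fell, and the median was 1.24. One symbol, Itgam, has a pair of gene identifiers in the table and is counted for each. The GGOH libraries differed in this list, with medians of 0.72, 1.09 and 1.51 over pamidronate on the log2(CPM + 0.5) scale, and the controls stood at 1.78, 2.57 and 2.92. Siglec1, a sialic acid receptor of macrophages (ENSMUSG00000027322, GRCm38 chromosome 2, 131069220 to 131086765), was at 5.74, 3.92 and 5.39 CPM with pamidronate and at 147, 258 and 414 CPM with GGOH. The groups were far apart, and the upper GGOH values reached the controls, 248, 433 and 430.5 CPM. Its log2 fold change was 5.76 ± 0.52 (SE, adjusted p = 1.27e-04). Fcgr1, the high-affinity receptor for antibodies, went from 0.856, 1.01 and 1.92 CPM to 11.012, 18.1 and 26.8 CPM, a log2 change of 3.88 ± 0.54 (SE, adjusted p = 7.43e-04). Itgam, which encodes CD11b, the alpha chain of a complement receptor, went from 8.43, 9.74 and 7.99 CPM to 64.4, 85.7 and 127 CPM, a log2 change of 3.40 ± 0.30 (SE, adjusted p = 4.93e-05). Csf1r, the receptor of the macrophage growth factor (ENSMUSG00000024621), was also higher in every GGOH library, but its GGOH values of 296, 361 and 614 CPM stayed below the controls, at 1357, 1400.5 and 1416 CPM. Exons of Csf1r overlap Hmgxb3 on the other strand, at 71.6 CPM over the 6 libraries. Mrc1, the mannose receptor, remained low, at 0.851, 1.62 and 2.37 CPM with GGOH against 8.76, 24.3 and 15.8 CPM in the controls. It was called higher, with a log2 change of 2.93 ± 0.73 (SE, adjusted p = 0.00754), but not by limma-voom (0.141). In RNA from bulk cells, fewer cells of a type and less RNA per cell cannot be told apart.

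Single members of the list differed in direction. Cd68, a lysosomal glycoprotein of macrophages, fell by 0.45 (adjusted p = 0.00334). Lyz2, the macrophage lysozyme, gave 0.45 (adjusted p = 0.0555), Spi1, which encodes the lineage factor PU.1, 0.29 (0.0683), and Tyrobp, an adaptor of activating receptors, 0.11 (0.461). Lyz2 was called higher by DESeq2 (0.0225), with RLE or upper-quartile factors (0.048 and 0.0443) and without GGOH replicate 1 (0.0241) or control replicate 1 or 3 (0.041 and 0.0351). Spi1 was called higher with upper-quartile factors (0.0454), with no filter (0.00342) and without GGOH replicate 1 or 2 (0.0119 and 0.0412). Adgre1, which encodes F4/80, and Tlr4, the receptor for lipopolysaccharide, rose by 1.15 and 2.38.

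Genes of adhesion were mostly higher too, in a list that shares Itgam with the macrophage genes. Of 38 genes of integrins, adhesion and podosomes 26 rose and 3 fell, or 1 without GGOH replicate 2, with a median of 0.65 and library medians of 0.49, 0.56 and 0.74 with GGOH. Itga4, the integrin alpha 4 chain (ENSMUSG00000027009, GRCm38 chromosome 2, 79255426 to 79333123), was at 763, 645 and 485 CPM with pamidronate and at 1725, 1921 and 2903 CPM with GGOH. GGOH replicate 3 was the highest, the groups did not overlap, and the controls were higher still, at 4931, 4789 and 5264 CPM. Its log2 fold change was 1.79 ± 0.20 (SE, adjusted p = 1.56e-05). Itgal, Fgr, Was and Zyx rose by 2.46, 1.96, 1.35 and 1.29, and Gsn, which severs actin filaments, by 1.29. The fibronectin receptor chain Itga5 fell by 0.63. The kinases Src and Ptk2b, called lower at -0.39 and -0.32, lost that call without GGOH replicate 2 (adjusted p = 0.0913 and 0.157) or 3 (0.189 and 0.0508), Src also without control replicate 2 or pamidronate replicate 1 or 2 (up to 0.0927) and Ptk2b without pamidronate replicate 3 (0.0565).

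The actin list had 24 of 35 genes higher and 0 lower (median 0.49). Actb, cytoplasmic beta actin (ENSMUSG00000029580, GRCm38 chromosome 5, 142903115 to 142906754), was at 1335, 1372 and 1429.7 CPM with pamidronate, at 2972, 3579 and 4523 CPM with GGOH and at 5381, 7094 and 8244 CPM in the controls. The 3 groups did not overlap, with GGOH between the others. Its log2 fold change over pamidronate was 1.42 ± 0.17 (SE, adjusted p = 1.34e-05). Flna, the crosslinker filamin A, changed by 1.59 ± 0.20 (SE, adjusted p = 1.02e-04), and Coro1a and Fmnl1, which act on actin in leukocytes, by 1.28 ± 0.18 and 1.28 ± 0.15 (SE). Myh9, nonmuscle myosin, and Pfn1, profilin, rose by 0.97 and 0.90. Of 15 targets of SRF and YAP, factors that respond to actin and tension, 6 rose, led by Filip1l at 1.93, and 2 fell, or 1 without pamidronate replicate 2 or GGOH replicate 2 or 3. Srf itself gave -0.05 (adjusted p = 0.775).

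Osteoclast genes split into those that rose and those that fell. Of 22 genes 10 rose and 7 fell (median 0.06). Ctsk, cathepsin K, the collagen-degrading protease of osteoclasts (ENSMUSG00000028111, GRCm38 chromosome 3, 95499256 to 95509362), was at 32.8, 36.0 and 29.9 CPM with pamidronate and at 11.8, 12.4 and 8.10 CPM with GGOH, and fell by 1.61 ± 0.20 (SE) on the log2 scale (adjusted p = 2.81e-05). Its level in the controls was lower again, at 3.74, 3.81 and 6.55 CPM. Atp6v0d2, a proton pump subunit induced in osteoclasts, went from 282, 329 and 204 CPM to 152, 141 and 84.3 CPM, a log2 change of -1.11 ± 0.24 (SE, adjusted p = 0.00508). Acp5, tartrate-resistant acid phosphatase, fell from 6.5996, 8.73 and 6.75 CPM to 2.95, 3.43 and 3.89 CPM, a log2 change of -1.10 ± 0.25 (SE, adjusted p = 0.00245). In the other direction, Mmp9, a gelatinase, was at 17.2, 21.4 and 14.5 CPM with pamidronate and at 61.8, 68.3 and 130.2 CPM with GGOH, 2.30 ± 0.38 (SE, adjusted p = 0.00204). All 3 GGOH values exceeded the controls, at 17.6, 32.4 and 31.3 CPM. Car2, the carbonic anhydrase of acid secretion, rose from 180.3, 155 and 118 CPM to 637, 577 and 914 CPM, a log2 change of 2.23 ± 0.23 (SE, adjusted p = 3.40e-05). Itgb3, a chain of the vitronectin receptor, rose by 0.54 ± 0.18 (SE), a call lost without pamidronate replicate 1 or 2 or GGOH replicate 1 (adjusted p up to 0.0933), and Tnfrsf11a, the RANK receptor, by 0.57 ± 0.12 (SE). Nfatc1, the transcription factor that directs osteoclast formation, was at 86.0, 87.8 and 80.6 CPM and 81.5, 75.3 and 88.8 CPM with overlapping groups (-0.05, adjusted p = 0.646). Calcr, the calcitonin receptor, had 0 counts in the pamidronate libraries and 1 count in each GGOH library, too few to compare.

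**Figure D3:**
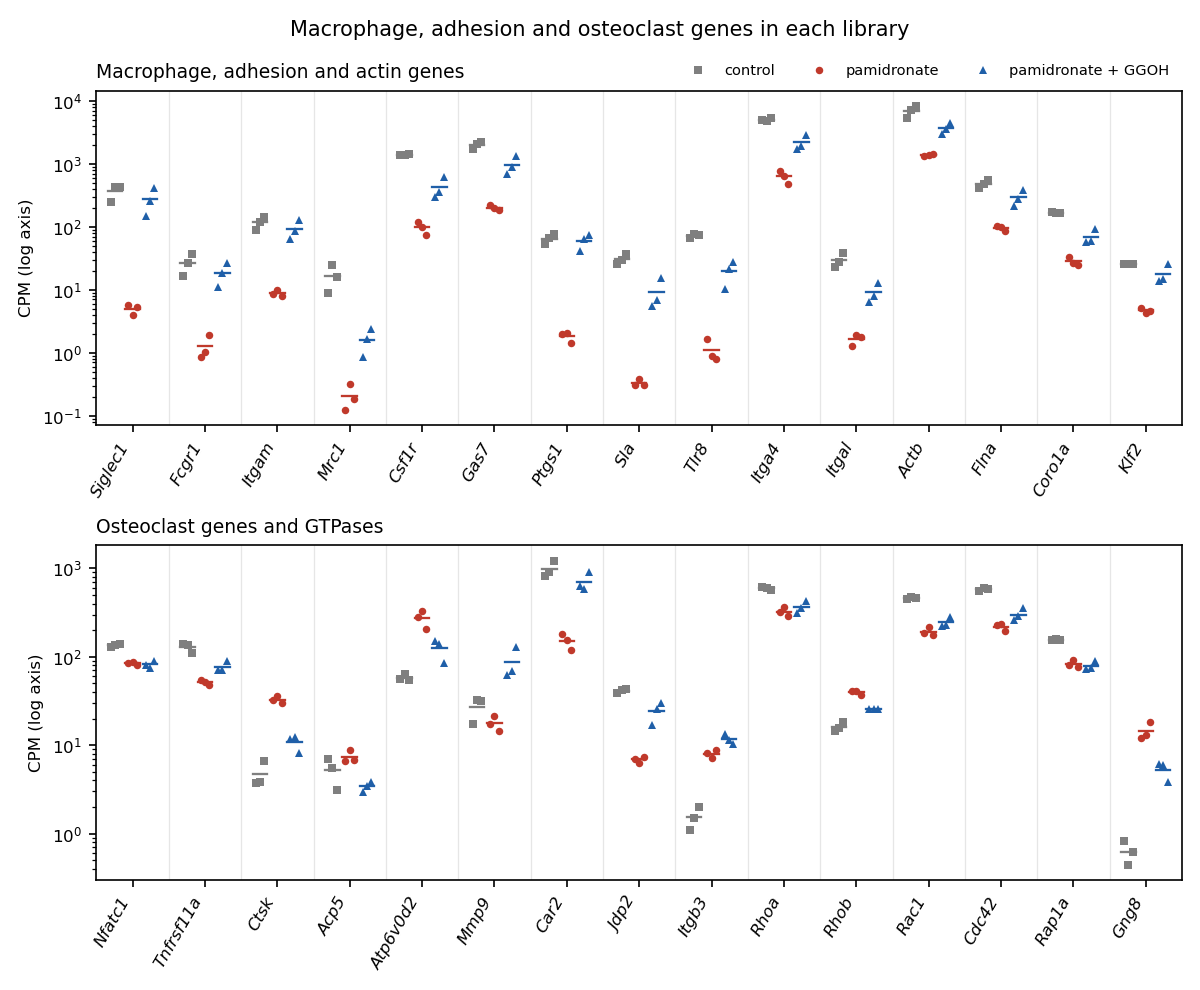
CPM of each gene in each of the 9 libraries on a log axis, with a bar at the mean of 3 libraries, for macrophage, adhesion and actin genes (top) and for osteoclast genes and GTPases (bottom). With GGOH, Siglec1, Itgam and Car2 reach or approach the controls, Csf1r, Itga4 and Actb lie between pamidronate and control, Ctsk and Atp6v0d2 fall toward the controls, and Rhoa, Rap1a and Nfatc1 overlap with pamidronate.

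Genes of the organelles that osteoclasts and macrophages use for degradation differed by list. Of 41 lysosomal proteins 20 rose, a share above the background, and 8 fell, a share below it (median 0.23). The count that fell was 5 without pamidronate replicate 2 or GGOH replicate 1 or 2. Asah1, acid ceramidase, was at 26.7, 24.7 and 27.9 CPM with pamidronate and at 57.6, 64.8 and 81.2 CPM with GGOH, 1.36 ± 0.12 (SE, adjusted p = 6.99e-07), and Ids and Sgsh, which degrade heparan sulfate, rose by 1.31 and 1.16. Ctsb, cathepsin B, fell by 0.46, and Mcoln1, a calcium channel of the lysosome, by 0.41. Of 20 subunits of the V-ATPase, the proton pump, 3 rose and 7 fell. Atp6v1h and Atp6v1d fell by 0.86 and 0.74, and Atp6v0a1 rose by 0.82. Autophagy genes were lower, 15 of 29 against 5 higher (median -0.38, or -0.25 without GGOH replicate 2). Ulk1, the kinase that starts autophagy (ENSMUSG00000029512, GRCm38 chromosome 5, 110784488 to 110810097), was at 131, 133 and 131 CPM with pamidronate and at 45.0, 42.9 and 43.6 CPM with GGOH. Neither group had much spread, and GGOH lay below the controls, at 67.1, 61.6 and 59.9 CPM. Its log2 fold change was -1.59 ± 0.08 (SE, adjusted p = 1.67e-08). Atg12, Atg2a and the receptors Nbr1 and Optn fell by 1.32, 1.13, 1.09 and 1.09, and Tfeb, a transcription factor of lysosomal genes, by 1.05. Ulk2, a relative of Ulk1, rose by 0.94.

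Targets of p53, the transcription factor of the DNA damage response, were lower with GGOH. Of 23 tested, 17 fell and 1 rose, or 2 rose without GGOH replicate 1, with a median of -0.64 and library medians of -0.67, -0.68 and -0.83 with GGOH and -0.94, -0.54 and -0.80 in the controls. Cdkn1a, which encodes the cell cycle inhibitor p21 (ENSMUSG00000023067, GRCm38 chromosome 17, 29090979 to 29100722), was at 507, 555 and 424 CPM with pamidronate and at 203, 197 and 229 CPM with GGOH, -1.24 ± 0.11 (SE, adjusted p = 1.38e-06). The GGOH values lay in the range of the controls, 218, 255 and 208 CPM, or just under it. Trp53inp1, which promotes p53 activity, went from 296, 319 and 262 CPM to 66.1, 70.7 and 47.0 CPM, a log2 change of -2.26 ± 0.19 (SE, adjusted p = 8.87e-06). Gdf15, a secreted stress factor, went from 64.5, 63.3 and 70.9 CPM to 16.8, 14.6 and 12.0 CPM, a log2 change of -2.20 ± 0.12 (SE, adjusted p = 3.27e-08), and stayed above the controls, at 3.74, 3.47 and 3.59 CPM. Eda2r, Phlda3, Zmat3 and Aen fell by 1.86, 1.53, 1.23 and 1.05. Mdm2, which targets p53 for degradation, fell by 0.64. The exception that rose was Rrm2b, a ribonucleotide reductase subunit (0.55).

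Cell death genes were more often called higher than lower, with single members in both directions. Bbc3 and Pmaip1, the p53-induced BH3-only proteins PUMA and NOXA, fell by 1.29 and 1.02, and Bcl2l11, the BH3-only protein BIM, went from 98.0, 111 and 124 CPM to 73.8, 71.4 and 60.3 CPM, a log2 change of -0.70 ± 0.10 (SE, adjusted p = 6.66e-05). Bmf, another BH3-only gene, went the other way, from 7.21, 5.38 and 4.58 CPM to 19.2, 16.9 and 21.2 CPM, a log2 change of 1.74 ± 0.18 (SE, adjusted p = 8.52e-06), and remained below the controls, at 87.8, 69.6 and 59.2 CPM. Mlkl, which perforates membranes in necroptosis, rose from 3.48, 2.91 and 2.97 CPM to 11.4, 11.8 and 12.9 CPM, a log2 change of 1.94 ± 0.18 (SE, adjusted p = 1.64e-06). Its GGOH values were above every control, 6.66, 9.57 and 6.74 CPM. Ripk3, Casp8 and Fadd of the same machinery rose by 0.74, 0.61 and 0.80. Of the 33 genes of this list 16 rose, a share above the background, and 7 fell, a share near it (median 0.32). Bcl2a1b and Bcl2a1d, which rose by 1.67 and 1.23, are near-identical copies between which counting may have split reads.

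The integrated stress response slows translation and induces ATF4, and of its 21 genes 9 rose and 7 fell. Atf4 (ENSMUSG00000042406, GRCm38 chromosome 15, 80255184 to 80257540) was at 735, 788 and 905 CPM with pamidronate and at 395, 336 and 261 CPM with GGOH, a log2 change of -1.29 ± 0.14 (SE, adjusted p = 5.00e-06). The controls were lower than both, at 162, 156 and 138 CPM. Atf3 went from 141, 176 and 177 CPM to 95.6, 88.6 and 68.6 CPM, a log2 change of -0.97 ± 0.12 (SE, adjusted p = 1.83e-05), and Ddit3 and Ppp1r15a fell by 1.03 and 1.00. Aldh18a1 and Shmt2, enzymes of proline and serine metabolism that ATF4 can induce, rose by 1.22 and 1.13, and Phgdh, Mthfd2 and Asns by 0.90, 0.76 and 0.44. The Shmt2 call was lost without pamidronate replicate 1 (adjusted p = 0.051) and with no filter on low counts (0.0565). Of 20 chaperones and other genes of the endoplasmic reticulum 8 fell and 1 rose, and 5 fell when pamidronate replicate 2 or GGOH replicate 2 was left out. Hspa5, the chaperone BiP (ENSMUSG00000026864, GRCm38 chromosome 2, 34771970 to 34777547), was at 988, 1118 and 1248 CPM with pamidronate and at 438, 334 and 274 CPM with GGOH, -1.68 ± 0.16 (SE, adjusted p = 3.25e-06). It was the highest in GGOH replicate 1 of its group, and the groups were far apart. Dnajb9 and Calr, a cochaperone and calreticulin, fell by 1.41 and 0.92, while Xbp1 rose by 0.54.

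Interferon-stimulated genes included large changes in both directions. Of 32 tested, 17 rose and 5 fell (median 0.63, or 0.40 without GGOH replicate 3). The GGOH libraries stood at 0.29, 0.51 and 0.99 relative to pamidronate, and the controls at -0.25, -0.25 and -0.14. Ifi44 (ENSMUSG00000028037, GRCm38 chromosome 3, 151730922 to 151749960) was at 48.7, 38.0 and 25.8 CPM with pamidronate and at 103, 133 and 178 CPM with GGOH, 1.88 ± 0.26 (SE, adjusted p = 4.92e-04). All 3 values exceeded the controls, at 56.5, 60.2 and 60.3 CPM. Oasl2, related to the enzymes that sense viral RNA, went from 6.05, 3.48 and 2.85 CPM to 10.1, 13.954 and 23.8 CPM, a log2 change of 1.95 ± 0.34 (SE, adjusted p = 9.09e-04), and Zbp1, a sensor of Z-form nucleic acid, rose by 2.25 ± 0.40 (SE). Ddx58 and Ifih1, which encode the RNA sensors RIG-I and MDA5, rose by 1.40 and 0.85. Ifit1, which binds foreign RNA ends (ENSMUSG00000034459, GRCm38 chromosome 19, 34640871 to 34650009), went down, from 17.9, 17.6 and 22.5 CPM to 6.64, 5.73 and 3.21 CPM, a log2 change of -1.90 ± 0.26 (SE, adjusted p = 6.15e-05), toward the 0.701, 1.12 and 1.73 CPM of the controls. Rsad2, the antiviral enzyme viperin, fell by 1.35, and Stat2 by 0.58.

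Most but not all promoters of this list held an interferon element. The ISRE core TTTCNNTTT, the letters bound by interferon-activated factors, was searched on both strands of the RefSeq windows. It was in 9.59% of tested genes and in 8 of the 12 interferon genes with a window that were called higher, 3 of the 5 called lower and 5 of the 7 not called. The 140 bases before the start site (GRCm38.p6) are shown for the 2 genes that rose and the 2 that fell most among those holding the core in this stretch, a choice made after the values were seen, with the core in capitals. Ifi44 is chr3:151749911-151750050, Ifi203 is chr1:173942493-173942632 and Rsad2 is chr12:26456453-26456592, all on the minus strand, and Ifit1 is chr19:34640749-34640888 on the plus strand.
Ifi44: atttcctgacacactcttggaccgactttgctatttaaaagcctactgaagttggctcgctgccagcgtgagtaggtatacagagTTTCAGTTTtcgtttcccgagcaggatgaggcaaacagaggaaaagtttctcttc
Ifi203: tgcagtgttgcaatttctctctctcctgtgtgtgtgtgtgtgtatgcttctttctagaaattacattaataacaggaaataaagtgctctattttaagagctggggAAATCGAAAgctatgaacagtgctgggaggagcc
Ifit1: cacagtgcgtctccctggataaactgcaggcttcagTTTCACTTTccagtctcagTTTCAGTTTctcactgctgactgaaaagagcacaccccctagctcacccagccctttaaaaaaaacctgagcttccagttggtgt
Rsad2: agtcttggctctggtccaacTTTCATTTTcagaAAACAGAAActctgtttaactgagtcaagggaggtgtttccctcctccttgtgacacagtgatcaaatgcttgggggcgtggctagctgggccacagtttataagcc
Ifit1 and Rsad2 each held 2 cores and Ifi44 and Ifi203 held 1. The RefSeq starts of Ifi44 and Ifit1 lie inside the gene spans given above, so part of each stretch does too. A match is a description of letters and says nothing of a factor at work.

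The inflammatory list was near the background in both directions, with 8 of 29 higher and 6 lower (median -0.06). Nlrp3, an inflammasome sensor (ENSMUSG00000032691, GRCm38 chromosome 11, 59541568 to 59566956), was at 6.29, 4.68 and 3.96 CPM with pamidronate and at 34.2, 37.3 and 50.7 CPM with GGOH, 3.03 ± 0.18 (SE, adjusted p = 1.10e-07). The controls held more, at 60.9, 66.3 and 67.3 CPM. Gsdmd, the pore protein of pyroptosis, Casp1 and Il18 rose by 1.37, 0.92 and 0.83. The chemokines Cxcl10 and Ccl5 fell by 1.51 and 1.23, and Ccl9 rose by 1.67. Tnf was at 159, 167 and 172 CPM and 155, 132 and 196 CPM and did not pass (-0.04, adjusted p = 0.795). Il1b, at under 1 CPM in every one of the 6 libraries, did not pass either.

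Feedback genes of the ERK pathway, which lies downstream of Ras, changed in opposite ways within 1 family. Dusp6, the phosphatase that acts on ERK in the cytoplasm (ENSMUSG00000019960, GRCm38 chromosome 10, 99263231 to 99267488), was at 4.34, 6.58 and 3.78 CPM with pamidronate and at 28.4, 38.0 and 61.8 CPM with GGOH, 3.13 ± 0.35 (SE, adjusted p = 2.16e-04). Dusp4, a nuclear phosphatase of the same family, went from 268, 323 and 321 CPM to 96.2, 79.2 and 54.9 CPM, a log2 change of -1.99 ± 0.20 (SE, adjusted p = 3.21e-05). In the controls Dusp6 was high and Dusp4 low, at 63.3, 85.0 and 83.9 CPM and 42.3, 30.8 and 31.8 CPM. Spred1, a Ras pathway inhibitor, rose by 1.36, and Phlda1 and Dusp1 fell by 1.38 and 1.33. Of the 17 genes 5 rose and 4 fell, shares near the background. Myc, the growth-promoting transcription factor (ENSMUSG00000022346, GRCm38 chromosome 15, 61985391 to 61990374), was at 65.0, 76.0 and 91.7 CPM with pamidronate and at 19.0, 12.0 and 7.10 CPM with GGOH, -2.61 ± 0.33 (SE, adjusted p = 3.89e-04), and at 1.05, 0.448 and 0.556 CPM in the controls. It was lowest in GGOH replicate 3 among the treated libraries. Klf2, a transcription factor of quiescent myeloid and endothelial cells, rose from 5.13, 4.30 and 4.65 CPM to 13.6, 14.8 and 25.5 CPM, a log2 change of 1.94 ± 0.21 (SE, adjusted p = 1.26e-05), whereas Klf4 gave 0.15 (adjusted p = 0.267). Of 11 KLF genes 3 rose and 4 fell, or 2 fell without control replicate 2 or 3, pamidronate replicate 2 or 3, or GGOH replicate 1 or 2. Of 11 RGS genes, which speed the shut-off of G proteins, 5 rose and 2 fell, or 1 without pamidronate replicate 1 or GGOH replicate 2. Rgs18 had 0 counts in all pamidronate libraries and 0.511, 0.997 and 0.999 CPM with GGOH, at least 13.4-fold higher against a floor of 3 counts over the pamidronate group.

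**Figure D4:**
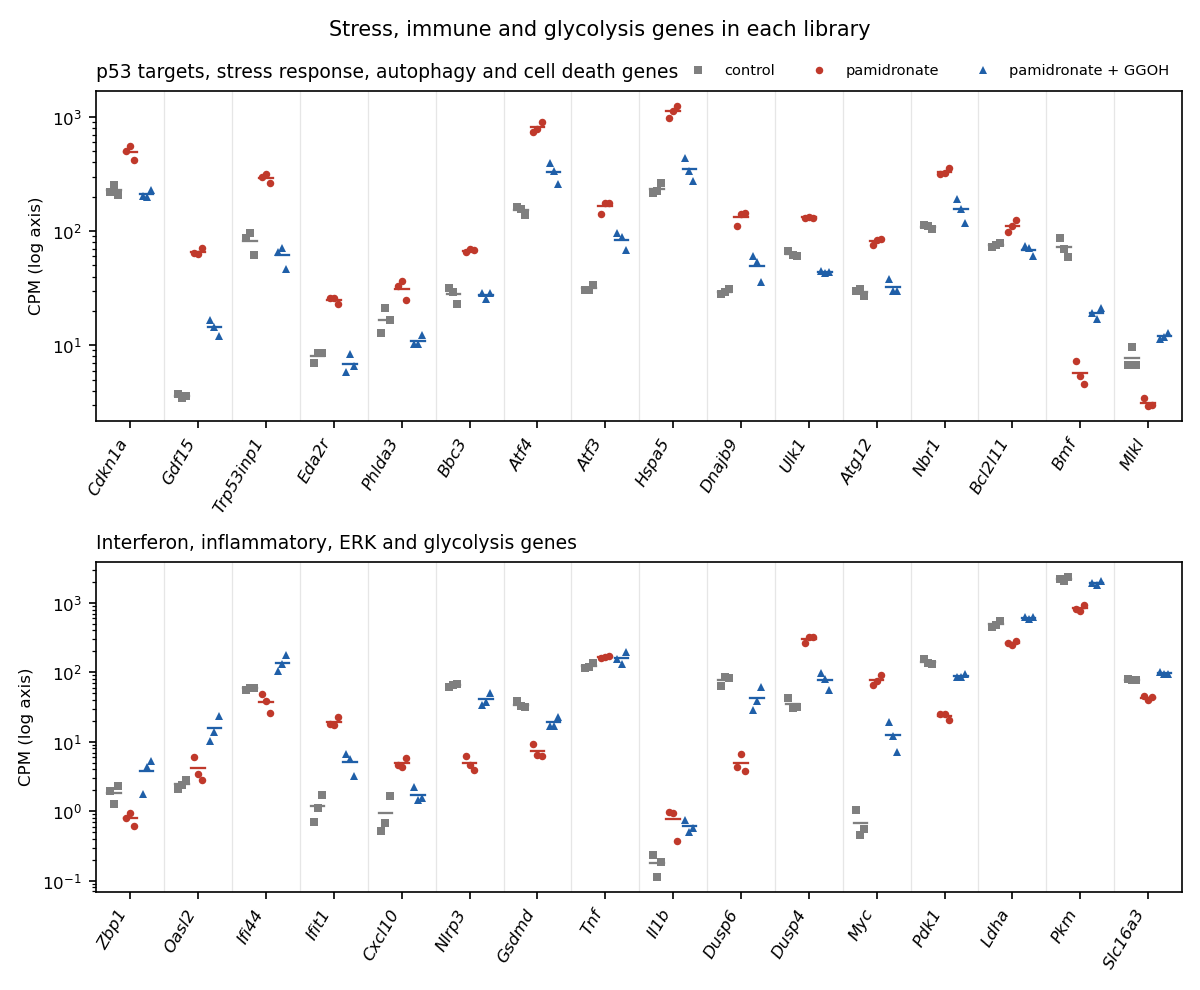
CPM of each gene in each of the 9 libraries on a log axis, with a bar at the mean of 3 libraries, for p53 targets, stress response, autophagy and cell death genes (top) and for interferon, inflammatory, ERK and glycolysis genes (bottom). With GGOH, Cdkn1a, Ulk1 and Hspa5 are low against pamidronate and Bmf and Mlkl high, Ifi44 and Oasl2 lie above and Ifit1 below the pamidronate libraries, and Tnf overlaps.

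Glycolysis and the targets of hypoxia were mostly higher, 18 of 33 genes against 2 lower, a count of 0 to 4 when 1 library was left out (median 0.37). Ldha, lactate dehydrogenase (ENSMUSG00000063229, GRCm38 chromosome 7, 46841475 to 46855627), was at 261, 248.9 and 279 CPM with pamidronate and at 623, 587 and 620.3 CPM with GGOH, 1.21 ± 0.10 (SE, adjusted p = 4.01e-07). All 3 values were above the controls, at 452, 481 and 549 CPM. Pkm, pyruvate kinase, changed by 1.19 ± 0.11 (SE, adjusted p = 1.44e-06), Slc16a3, which exports lactate, by 1.17 ± 0.08 (SE, adjusted p = 1.76e-07), and Eno1, enolase, by 1.09 ± 0.10 (SE, adjusted p = 1.23e-06). Pdk1, which holds pyruvate back from the mitochondrion, went from 25.3, 24.8 and 20.7 CPM to 85.0, 86.1 and 94.9 CPM, a log2 change of 1.91 ± 0.10 (SE, adjusted p = 3.27e-08). The glycolytic genes Pgk1 and Aldoa did not pass.

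Mitochondrial genes rose where they are encoded by the mitochondrial genome, 7 of 12 with 0 lower (median 0.55, or 0.89 without pamidronate replicate 3). mt-Cytb, cytochrome b, was at 1553, 1663 and 3061 CPM with pamidronate and at 4319, 5560.4 and 6386 CPM with GGOH, 1.37 ± 0.24 (SE, adjusted p = 5.44e-04). Pamidronate replicate 3 was the highest of its group and still below the GGOH values, and the controls held 13904, 12924 and 13140.3 CPM. mt-Co1, a subunit of cytochrome oxidase, gave 0.08 (adjusted p = 0.685). Among the 75 nuclear-encoded subunits of oxidative phosphorylation 11 rose and 14 fell, shares below the background in both directions, and 9 fell without control replicate 2 and 7 without GGOH replicate 2. Uqcrh, Ndufs8 and Sdhd fell by 0.84, 0.64 and 0.63, and Cox5b rose by 0.68.

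Ribosomal protein genes were lower, 41 of 80 with 0 higher, but by little, with a median of -0.32. The count rested on single libraries, since 10 were called without GGOH replicate 2, 14 without GGOH replicate 3, 21 without pamidronate replicate 2 and 22 without control replicate 2. The library medians with GGOH were -0.16, -0.40 and -0.38, those of the controls 0.13, -0.10 and -0.33. Rpl13a, at 68.3, 59.7 and 60.3 CPM with pamidronate and 40.7, 37.6 and 40.3 CPM with GGOH, changed by -0.67 ± 0.15 (SE, adjusted p = 0.00312). The genes have many processed copies, which makes the counts of single members uncertain. Of 78 mitochondrial ribosomal proteins 24 fell and 6 rose, and 14 fell without GGOH replicate 3, while 3 rose without pamidronate replicate 1. Proteasome subunits also divided. Psmb6 and Psmd8 fell by 1.19 and 1.04, among 15 of 38 that fell, whereas the interferon-inducible subunits Psmb8, Psmb9 and Psmb10 were among the 7 that rose, by 0.69, 0.74 and 0.68. The last call was lost without pamidronate replicate 2 or 3 or GGOH replicate 3 (adjusted p up to 0.078), and 3 subunits were higher without pamidronate replicate 3. Psmb9 overlaps Tap1 on the other strand. Of 35 aminoacyl-tRNA synthetases 9 rose, a share near the background, and 6 fell, a share below it.

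Few proliferation genes were called, and the GGOH libraries differed widely in these lists. Of 45 genes of DNA replication 9 fell and 1 rose, both shares below the background. The list median was 0.22, or -0.05 without GGOH replicate 3, with library medians of -0.27, 0.13 and 0.49 with GGOH. The count that rose became 7 without control replicate 1, 6 without control replicate 3 and 8 without GGOH replicate 1. It was 2 without GGOH replicate 2 or pamidronate replicate 3. Of 44 mitosis genes 4 fell and 0 rose, or 8 and 1 without control replicate 1. Library medians of the mitosis list were -0.68, -0.11 and 0.43 with GGOH and -0.26, 1.13 and 1.57 in the controls, so the GGOH libraries lay on both sides of pamidronate. Ccne2, cyclin E2, was at 23.6, 30.1 and 21.2 CPM with pamidronate and at 7.89, 10.7 and 9.52 CPM with GGOH, -1.42 ± 0.26 (SE, adjusted p = 0.00104), with exons that overlap Ints8. Mad2l1, of the spindle checkpoint, fell by 1.38, and E2f1 rose by 0.94. The 51 replication-dependent histone genes had a median of 0.63, with library medians of -0.18, 0.33 and 1.05 with GGOH. Of these genes 4 rose and 3 fell. The count of higher ones ran from 0 without GGOH replicate 3 and 1 without pamidronate replicate 3 to 15 without control replicate 1. Without pamidronate replicate 1 or 2 it was 2, and without GGOH replicate 1 it was 7. The count of lower ones became 7 without control replicate 1 and 1 without pamidronate replicate 2. Histone RNA made up 0.0454%, 0.0590% and 0.0840% of counts in GGOH replicates 1, 2 and 3 and 0.0496% to 0.0563% with pamidronate (exact two-sided permutation p = 0.6).

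Antioxidant genes were called higher more often than lower. Of 24 genes of NRF2 and oxidative stress 12 rose and 3 fell (median 0.49). Srxn1, which repairs peroxiredoxins, was at 21.7, 17.7 and 13.7 CPM with pamidronate and at 52.2, 62.9 and 61.5 CPM with GGOH, 1.73 ± 0.17 (SE, adjusted p = 7.67e-06), above the controls at 39.4, 33.0 and 26.4 CPM. Gsr, glutathione reductase, changed by 1.47 ± 0.18 (SE, adjusted p = 4.67e-05). Nqo1 rose by 2.85 at no more than 2.87 CPM, and Hmox1, haem oxygenase, gave 0.12 (adjusted p = 0.601). The members that fell were the iron storage genes Fth1 and Ftl1 and the thioredoxin Txn1. Fth1, ferritin heavy chain, went from 24992, 29846 and 25963 CPM to 12621, 11506 and 11439.6 CPM, a log2 change of -1.18 ± 0.17 (SE, adjusted p = 5.43e-05). The Ftl1 call (-1.06) was lost with no filter on low counts (0.123), without GGOH replicate 2 or 3 (adjusted p = 0.0716 and 0.124) and without pamidronate replicate 1 or 2 (0.0593 and 0.0567). Both have processed copies in the genome. Of 21 selenoproteins and their synthesis factors 10 rose and 3 fell. The synthesis of these proteins needs a tRNA with an isoprenoid modification, and Trit1, which adds it, fell by 0.46, a call lost without pamidronate replicate 2 or GGOH replicate 3 (0.0551 and 0.0867). Selenop, the secreted selenium carrier, rose from 2.57, 2.53 and 1.55 CPM to 6.19, 11.2 and 17.7 CPM, a log2 change of 2.40 ± 0.48 (SE, adjusted p = 0.00486), far below the controls at 165, 234 and 157 CPM. Sepsecs and Selenoh fell by 0.92 and 0.90.

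The genes that rose most were ranked among those called, without overlap and with a mean of at least 5 CPM in the higher group, here GGOH. Their pamidronate levels could thus be near 0, where the size of a change is uncertain. First among those described was Mgl2, a galactose-binding lectin of macrophages (ENSMUSG00000040950, GRCm38 chromosome 11, 70130329 to 70137550). It was at 0, 0.0633 and 0.496 CPM with pamidronate and at 12.998, 24.4 and 27.6 CPM with GGOH, 6.81 ± 0.96 (SE, adjusted p = 9.87e-04), and the GGOH values exceeded the controls, at 2.39, 10.2 and 10.1 CPM. Ptgs1, cyclooxygenase 1, went from 2.02, 2.02 and 1.42 CPM to 41.0, 63.2 and 72.9 CPM, a log2 change of 5.01 ± 0.28 (SE, adjusted p = 7.81e-07), in the range of the controls, 53.035, 65.5 and 75.6 CPM, or just below. Sla, an adaptor that restrains receptor signalling, went from 0.306, 0.380 and 0.310 CPM to 5.45, 6.79 and 15.4 CPM, a log2 change of 4.77 ± 0.56 (SE, adjusted p = 1.50e-04), and Tlr8, a receptor for RNA, from 1.65, 0.886 and 0.805 CPM to 10.2, 20.994 and 27.6 CPM, a log2 change of 4.13 ± 0.46 (SE, adjusted p = 1.85e-04). For these 2 genes GGOH stayed below the controls, which held 25.6, 29.8 and 36.7 and 66.8, 75.7 and 75.1 CPM. Others were higher than in either remaining group. Plxdc2 was at 6.36, 12.1 and 12.6 CPM with GGOH against 0.244, 0.127 and 0.248 CPM with pamidronate and 3.80, 3.42 and 2.84 CPM in the controls, a log2 change of 5.60 ± 0.38 (SE, adjusted p = 1.13e-07). Skint7 was at 9.59, 20.4 and 12.2 CPM with GGOH, 0.550, 0.316 and 0.619 CPM with pamidronate and 0, 0 and 0.0618 CPM in the controls, a log2 change of 4.80 ± 0.36 (SE, adjusted p = 3.83e-07). The set also held Siglec1, Ranbp3l, Il18rap and Ms4a6b, at 5.76, 4.85, 4.19 and 4.16.

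Of the 10 genes that fell most by the same rule, 3 were Insig1, Hmgcs1 and Myc, described above. Eps8l1, related to the actin regulator EPS8, was at 5.44, 8.92 and 12.1 CPM with pamidronate and at 0.681, 0.685 and 0.368 CPM with GGOH, -3.93 ± 0.34 (SE, adjusted p = 7.59e-07). Hrc, a calcium-binding protein of the sarcoplasmic reticulum, went from 14.1, 14.1 and 16.5 CPM to 1.25, 1.06 and 1.16 CPM, a log2 change of -3.68 ± 0.20 (SE, adjusted p = 3.27e-08). The controls held 0.175, 0.168 and 0.185 CPM of Eps8l1, below all 3 GGOH values, and 1.87, 1.74 and 1.30 CPM of Hrc, above them. Psrc1, a microtubule-binding protein and p53 target, went from 239, 257 and 214 CPM to 47.7, 39.2 and 48.3 CPM, a log2 change of -2.39 ± 0.12 (SE, adjusted p = 1.67e-08). Hyal3, Ttc21a and Fam71a changed by -2.71, -2.65 and -2.42, and Hyal3 shares exons with Hyal1 and Naa80. Among abundant genes with a change of at least 2-fold, Gas7, which acts on actin and membranes, rose from 223, 201 and 183 CPM to 677, 901 and 1339 CPM, a log2 change of 2.27 ± 0.22 (SE, adjusted p = 1.45e-05), and Serinc3 by 1.44. Neat1, a nuclear RNA that builds paraspeckles, fell from 22974, 21601 and 21060.0 CPM to 7871, 5207 and 5133 CPM, a log2 change of -1.85 ± 0.36 (SE, adjusted p = 0.00269), and Malat1 by 1.07. Slc5a3, which imports inositol, and Cpeb4, a regulator of translation, fell by 1.13 and 1.31.

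Classes of genes differed in how many were called. Of 12285 protein-coding genes 28.8% were higher and 24.6% lower. Of 122 snoRNA genes 3 were higher (2.46%) and 33 lower (27.0%), with a median of -0.41. Of 87 snRNA genes 3 were higher (3.45%) and 21 lower (24.1%), with a median of -0.35. Of 631 processed pseudogenes 39 were higher (6.18%) and 127 lower (20.1%), with a median of -0.31. In these 3 classes the lower shares were near the 23.6% of all genes tested, whereas the higher shares were far below the 25.2%. The nuclear RNAs Malat1 and Neat1 were lower in the same libraries, and their part in these counts was not tested. The plot of list medians by library sets 40 lists side by side.

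**Figure D5:**
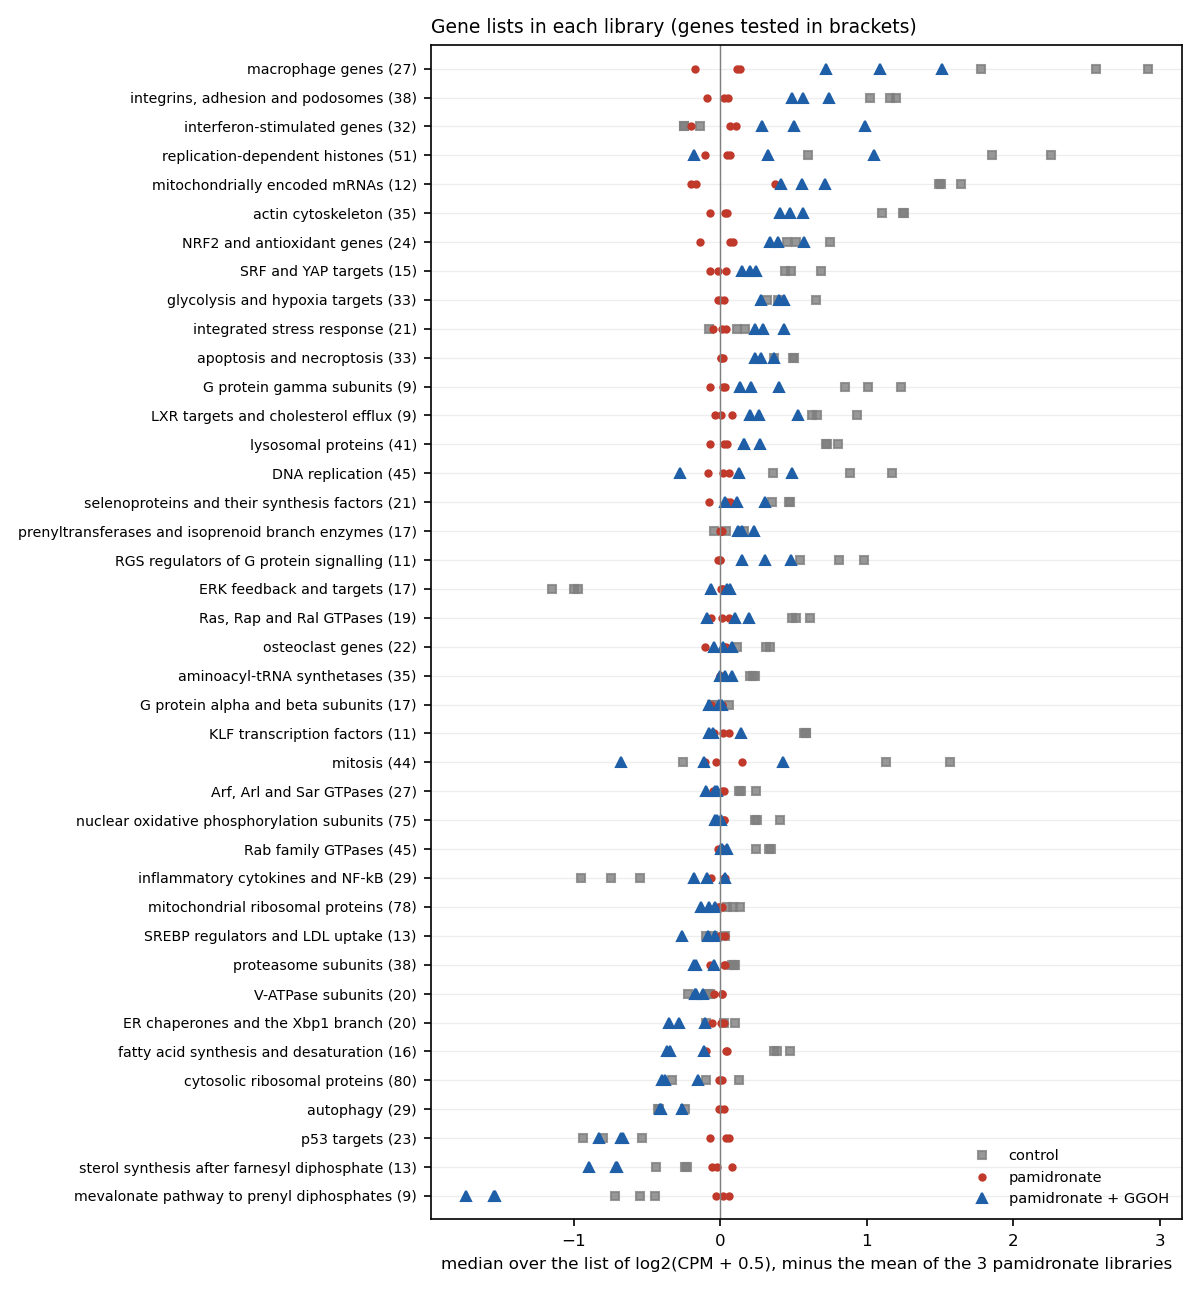
Median over the tested genes of each list of log2(CPM + 0.5), relative to the mean of the 3 pamidronate libraries, with 1 point per library and the number of genes tested in brackets. The pamidronate + GGOH libraries are highest for the macrophage list, with medians of 0.72, 1.09 and 1.51, and lowest for the mevalonate list, with medians of -1.54, -1.54 and -1.74, and they spread widest for the mitosis and histone lists.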

How the data were processed

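Total RNA of 9 samples of RAW 264.7 cells was sequenced, per the labels. The authors deposited raw read counts per gene for 49315 genes and TPM values. The deposited TPM equal counts over exon length to within rounding, and they were not tested. The submitters' processing notes name Trimmomatic 0.36, GRCm38 and DESeq, and which aligner, counter and strand setting were used is not given in the sources used here. Gene positions come from GENCODE M21.

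Counts of all 9 libraries were fitted in 1 group-means model (edgeR 4.0.16, R 4.3.3) with TMM factors, filterByExpr, robust quasi-likelihood dispersion and Benjamini-Hochberg adjustment, which left 15963 genes. CPM use TMM-scaled library sizes, and library medians of lists use log2(CPM + 0.5). The alternatives tried were scaling with RLE or upper-quartile factors, no filter, a stricter filter (at least 1 CPM in 3 libraries), DESeq2 1.42.0, limma-voom (limma 3.58.1), the 2 groups alone, a replicate block and each library left out. The script was tested on simulated data.

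The comparison and all gene lists were chosen with earlier results of these data known. Named genes include the 10 highest and 10 lowest log2 fold changes of called genes without overlap, at 5 CPM or more in the higher group. They also include the 8 most abundant genes changed at least 2-fold each way, up to 4 called members of each list, and a set of pathway genes. A further 64 list members were named after their values were seen. Promoter windows are those of RefSeq for GRCm38.p6, matched by symbol, for 10321 of the tested genes. A few genes and gene lists of the comparison are not reported here.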

Additional observations from a re-analysis of the deposited data

How the results depend on the processing

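Under 18 alternatives the genes called higher stayed between 3446 and 4430 and those called lower between 2810 and 4010, against 4022 and 3762, and every gene called both as reported and in an alternative kept its direction. Leaving out 1 library gave 3446 to 4430 higher, 2810 to 4010 lower and 2323 to 2924 called and at least 2-fold. The labels do not say whether the replicate numbers pair the samples. Deviations of same-numbered pamidronate and GGOH libraries from their group means correlated at -0.13, -0.02 and -0.22, and the controls were not part of this check. In each group the histone share of counts was lowest in replicate 1 and highest in replicate 3. Whether same-numbered samples share a culture or day was not tested. With the replicate block 3938 genes were called higher and 3684 lower, and with the replicate block and the 2 groups alone 3502 and 3303. Histone genes called higher went from 4 to 17 with the block and to 16 with the 2 groups alone and no block, and DNA replication genes called higher from 1 to 7 in both. Of 278 named genes that were called, 26 lost the call in at least 1 alternative run. List medians near 0 changed sign in some alternatives for the Rab, Arf, G protein alpha and beta, KLF, osteoclast, mitosis and oxidative phosphorylation lists. The median of the DNA replication list, 0.22, became -0.05 without GGOH replicate 3. The cause of these changes was not tested. A lone library left out leaves 2 in its group, whose spread is pooled over the 3 groups. Depth limits genes such as Calcr, Rgs18 and Mgl2, which had 0 counts in at least 1 pamidronate library.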
